A study of Mus musculus with 7 samples.

Results

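The accessibility of chromatin was examined at 10 genes of iron handling in liver, namely the hepcidin genes Hamp and Hamp2, the transferrin receptor genes Tfrc and Tfr2, the ferritin genes Fth1 and Ftl1, the iron exporter gene Slc40a1, and Hfe, Bmp6 and Tmprss6, which act upstream of hepcidin. A consensus ATAC-seq region was taken as belonging to a gene when it overlapped the gene body or the 10 kb on either side (GENCODE M21, GRCm38). No measured value entered that assignment, which gave 38 of the 55680 regions, at 9 of the 10 genes. The genes, and the lists of other genes examined below, were chosen with earlier results of these data known. ATAC-seq uses a transposase to place sequencing adapters where DNA is exposed, so that the number of reads in a region measures how accessible it was. Nuclei came from liver of C57BL/6N mice, with 3 samples at 3 months (young) and 4 at 18 months (aged), and no treatment or altered allele is named for either group. The study's methods give male animals. The deposited design traces the 4 aged samples to 3 animals, with separate lobules of 1 liver entering as 2 samples, and does not say which these were, while the study's methods call all 4 biological replicates, so that p-values measure the spread between samples.

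Hepcidin, the product of Hamp, is a peptide hormone made by hepatocytes that lowers plasma iron by blocking and degrading ferroportin, the only known cellular iron exporter, encoded by Slc40a1. Hepatocytes raise hepcidin when BMP6 from sinusoidal endothelial cells activates SMAD signalling, with HFE and transferrin receptor 2 as sensors of iron-loaded transferrin, and when IL-6 activates STAT3. The protease matriptase-2, encoded by Tmprss6, dampens the same pathway by cleaving the BMP co-receptor hemojuvelin. Iron taken up through transferrin receptor 1 (Tfrc) is stored in ferritin, a shell of heavy (Fth1) and light (Ftl1) chains, and iron regulatory proteins set ferritin, ferroportin and transferrin receptor 1 output by binding a hairpin in their mRNAs.

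The Hamp promoter carries response elements through which the BMP and IL-6 signals act, so the 250 bases before the start of each gene are given from RefSeq (GRCm38.p6), 5′ to 3′ on the minus strand of chromosome 7. Capitals mark the BMP response element GGCGCC, the STAT site TTCNNNGAA and the AP-1 site TGANTCA, each searched on both strands. The Hamp stretch is chr7:30944030-30944279 and the Hamp2 stretch chr7:30924182-30924431.
Hamp: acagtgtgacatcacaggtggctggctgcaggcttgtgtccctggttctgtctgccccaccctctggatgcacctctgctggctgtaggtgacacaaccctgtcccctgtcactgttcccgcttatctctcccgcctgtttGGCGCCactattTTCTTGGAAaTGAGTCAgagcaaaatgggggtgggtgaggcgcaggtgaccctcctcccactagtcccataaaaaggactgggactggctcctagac
Hamp2: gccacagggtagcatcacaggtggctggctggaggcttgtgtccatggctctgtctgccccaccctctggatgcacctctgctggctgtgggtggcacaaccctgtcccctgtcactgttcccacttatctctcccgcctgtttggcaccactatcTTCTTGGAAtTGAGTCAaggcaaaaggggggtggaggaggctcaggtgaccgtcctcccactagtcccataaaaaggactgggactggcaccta
The Hamp stretch held all 3 elements, with GGCGCC at bases -109 to -104 from the start, TTCTTGGAA at -97 to -89 and TGAGTCA at -87 to -81. The Hamp2 stretch held the STAT site at -94 to -86 and the AP-1 site at -84 to -78, and GGCGCC did not occur in it. The aligned stretches shared 89.7% of positions, with 227 identical bases, 20 mismatches and 6 gaps. Among all 32851 RefSeq promoter stretches, 9.59% held GGCGCC, 7.02% the STAT site and 6.75% the AP-1 site. Of the 8 genes with a RefSeq stretch, Tfrc also held GGCGCC (bases -89 to -84), Hfe an AP-1 site (-67 to -61) that overlapped an antioxidant response element TGACNNNGC, and Bmp6 an E-box CACGTG (-127 to -122) with an antioxidant response element (-108 to -100). Positions count from RefSeq starts. The Hamp2 and Bmp6 stretches lie inside the GENCODE genes, which start at chr7:30924681 and chr13:38345107. The E-box occurred in 6.02% and the antioxidant response element in 10.2% of all promoter stretches.

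The iron responsive element, the hairpin bound by iron regulatory proteins, is shown for the 3 genes in which it lies in the 5′ UTR, because the DNA that encodes it falls inside the promoter region counted for each of them. Each is 29 bases of the mRNA sense strand (GRCm38) with the loop CAGTGN in capitals. The Fth1 element is at chr19:9982732-9982760, the Ftl1 element at chr7:45459779-45459807 and the Slc40a1 element at chr1:45925465-45925493.
Fth1: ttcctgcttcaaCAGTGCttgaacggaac
Ftl1: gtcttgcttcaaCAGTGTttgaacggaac
Slc40a1: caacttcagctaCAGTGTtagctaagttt
The search required paired stems around the loop and found 0 stem mismatches in all 3. It found 4 further elements in the 3′ UTR of Tfrc, and these lay outside every region. The elements act on mRNA, so accessibility does not measure their use.

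The counts in regions summed to between 4474652 and 25461110 per sample, and single counts at the 38 regions ran from 4 to 4597. Values are given as CPM, the reads in a region scaled to the library's total in all regions after TMM scaling, and changes as log2 fold changes of aged against young from edgeR's quasi-likelihood test, with p-values adjusted over all 55680 regions by Benjamini-Hochberg and a threshold of 0.05. The defining promoters of the tissue were present, since all 7 hepatocyte markers had a region, against 1 of 7 Kupffer cell, 4 of 6 sinusoidal endothelial, 3 of 6 stellate, 2 of 4 cholangiocyte, 2 of 4 erythroid and 0 of 6 lymphocyte markers. Summed over the hepatocyte markers, accessibility was 561 to 630 CPM in young and 693 to 809 CPM in aged samples. All 7 had a fold change above 0, and edgeR called 1, Apoa1, higher (14.3%, beside 4.48% of all promoter regions). By edgeR 4 (57.1%) had an unadjusted p under 0.05, beside 32.1% of all promoter regions. DESeq2 called 2 higher, where it called 10.01% of all promoter regions higher. The sums were 67.4 to 75.0 CPM in young and 53.2 to 89.0 CPM in aged samples for endothelial markers, 26.6 to 29.1 and 16.1 to 23.5 CPM for stellate markers, and 2.22 to 2.65 and 0.588 to 2.80 CPM for the single Kupffer cell marker. For cholangiocyte markers they were 41.7 to 49.5 CPM in young and 36.7 to 54.3 CPM in aged samples, and for erythroid markers 8.33 to 11.5 and 7.47 to 10.8 CPM. By edgeR 0 markers of these other types passed the test, where 4.48% of all promoter regions were called higher and 2.06% lower. An unadjusted edgeR p under 0.05 was found at 1 stellate and 1 cholangiocyte marker, and DESeq2 called 0. In bulk tissue, fewer cells of a type and less accessible chromatin per cell cannot be told apart, and the part of cell make-up in the results was not tested.

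Of the 38 regions, 1 was higher and 2 were lower in aged liver, and 35 did not pass the test. The higher region was the promoter of Tmprss6, and the lower regions lay at opposite ends of the Fth1 window. Over all regions, 2.44% were called higher and 3.30% lower, so a count of 1 and 2 of 38 was near the background. The log2 fold change was above 0 at 23 regions (60.5%), beside 46.6% of all regions, and its median was 0.16, beside -0.04 over all regions. All 4 aged samples lay above all 3 young ones at 4 of the 38 regions, against 10.2% of all regions, and below them at 2, against 11.6%. At the 9 promoters of the genes themselves (regions overlapping the 200 bp on either side of a transcription start), 1 was called higher and 0 lower, where 4.48% of all 15422 promoter regions were called higher and 2.06% lower. By edgeR, 4 of these 9 promoters had an unadjusted p under 0.05, beside 32.1% of all promoter regions. DESeq2 called 3 of the 9 higher, those of Ftl1, Slc40a1 and Tmprss6, and 0 lower, where it called 10.01% of all promoter regions higher and 2.224% lower. The fold change was above 0 at 7 of the 9, with a median of 0.19, beside 61.1% and 0.09 over all promoter regions.

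**Figure D1:**
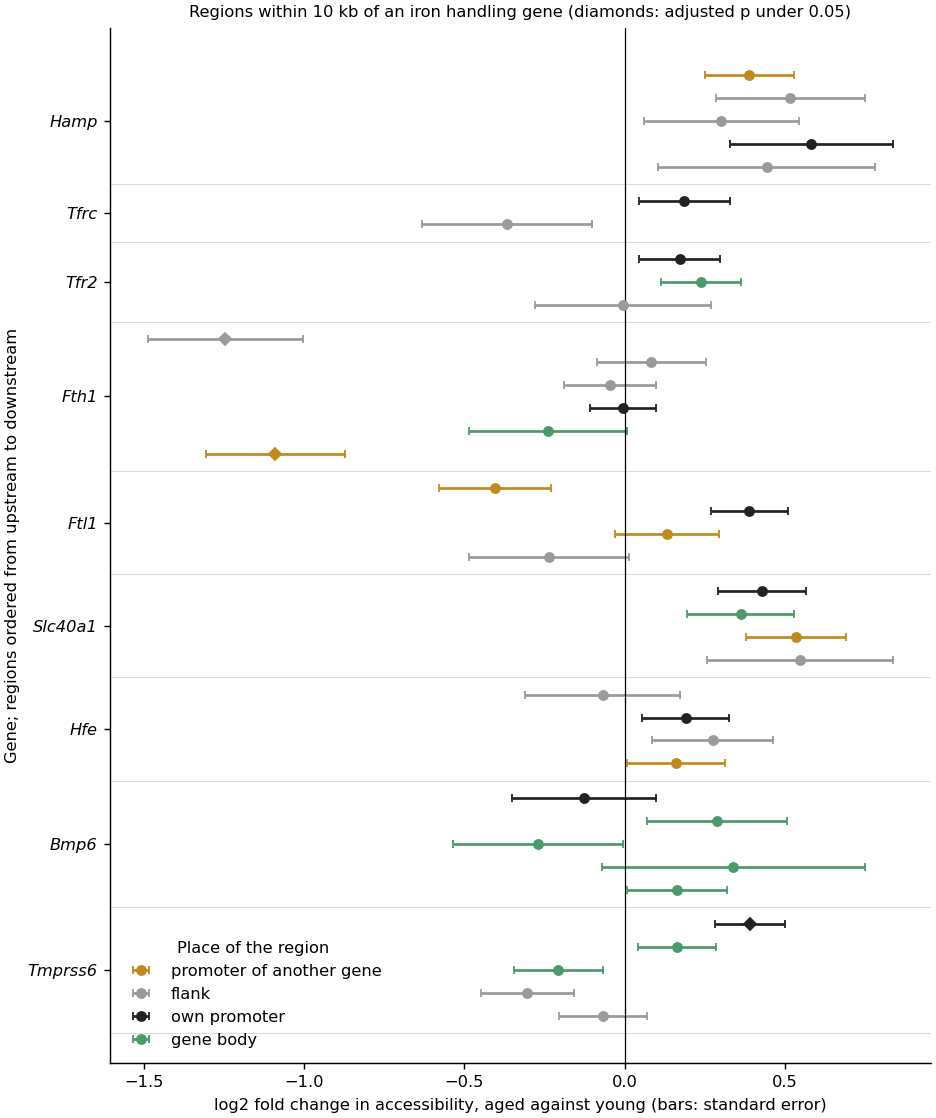
Log2 fold change in accessibility of aged against young liver (x axis) at each of the 38 regions, grouped by gene and ordered from upstream to downstream, with bars for the standard error, colours for the place of the region and diamonds for an adjusted p under 0.05. All 5 Hamp regions (1 of which turned with offsets fitted on mean abundance) and all 4 Slc40a1 regions lie above 0, and the outermost Fth1 regions lie at -1.25 and -1.09.

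The strength of a region moved with its change. The median fold change of all regions ran from -0.42 in the weakest to 0.28 in the strongest decile by mean log2 CPM. The regions of the iron handling genes were mostly strong, with 8 in the second strongest and 9 in the strongest decile. When offsets fitted on mean abundance removed this trend, their median fell from 0.16 to 0.04. In that fit edgeR called 0 of the 38 in either direction, where it called 250 higher and 414 lower of all 55680 regions. There 7 of the 38 had an unadjusted p under 0.05, and the share of all regions was not taken. In the reported fit 11 (28.9%) had such a p, beside 24.6% of all regions.

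Hamp lay within a single broad region of 5051 bp (chr7:30941079-30946129) that covered its promoter with the elements shown above, its whole body and the 3′ end of Usf2, whose product is a transcription factor. Accessibility there was 153, 69.0 and 72.0 CPM in young replicates 1 to 3 and 176, 123, 182 and 107 CPM in aged replicates 1 to 4. Young replicate 1 lay among the aged samples, and the other young samples lay below all 4. The fold change was 0.58 (SE 0.26) on the log2 scale and did not pass the test (edgeR adjusted p = 0.176). Without young replicate 1 it was 1.06 and passed (edgeR adjusted p = 0.0430), and without each of the other 6 samples in turn it was 0.38 to 0.72 and did not (edgeR adjusted p = 0.0798 to 0.469). The lowest of these values was that without young replicate 2.

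The other 4 Hamp regions also had values above 0 in the reported fit, and none passed the test. The region of 4028 bp at the promoter of Usf2, about 10 to 14 kb upstream of Hamp, was the strongest of the 38. It held 203, 174 and 142 CPM in young and 237, 187, 252 and 230 CPM in aged samples (0.39, SE 0.14, edgeR adjusted p = 0.106). The value turned to -0.03 with offsets fitted on mean abundance, and it passed with offsets fitted on GC content (0.38, edgeR adjusted p = 0.0403). A flank region at 30952916 measured 13.5 ± 3.78 CPM in young (SD, n = 3) and 19.8 ± 5.70 CPM in aged samples (SD, n = 4). At a flank region downstream of the gene, at 30940017, young replicate 1 again stood with the aged samples, at 24.9 CPM against 9.68 and 9.21 CPM in the other young samples and 11.1 to 26.6 CPM in aged ones.

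Hamp2, the second mouse hepcidin gene, had no region within its window. The nearest region edges were 48.6 kb away on one side and 15.3 kb on the other. Its locus is a near copy of the Hamp locus. The Hamp2 locus (chr7:30921991-30925916) matched 78.9% of the Hamp promoter region at 95.01% identity. A Hamp flank region at 30947474 had a near-identical copy (95.9% covered, 96.7% identity) elsewhere, at chr7:30936092-30936814, outside the Hamp2 window. The authors kept only reads above a mapping quality limit, which leaves out reads that align equally well to both copies, so the values in the shared stretches are uncertain.

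The genes upstream of hepcidin were next examined. Tmprss6, which encodes the protease that restrains hepcidin, was the single iron handling gene with a promoter called higher in aged liver. Its promoter region (chr15:78467543-78471375) measured 96.9, 98.9 and 91.3 CPM in young and 124, 113, 139 and 125 CPM in aged samples, and the groups did not overlap. The fold change was 0.39 (SE 0.11, edgeR adjusted p = 0.0499), close to the threshold, and it passed in 5 of 21 alternative fits with values from 0.05 to 0.48. Of its other regions, the one in the gene body at 78455926 had 0.16 and the remaining 3, toward and past the 3′ end, had -0.21, -0.30 and -0.07. None of these 4 passed the test.

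Bmp6, the ligand that raises hepcidin, had the weakest promoter region of the set (chr13:38344963-38345719). It measured 6.39, 7.63 and 5.75 CPM in young and 5.71, 5.88, 5.37 and 7.38 CPM in aged samples, and the groups overlapped (-0.13, SE 0.22, edgeR adjusted p = 0.769). Its 4 gene body regions had fold changes of -0.27 to 0.34, none of which passed. Hfe, a partner of the transferrin receptors, measured 32.2, 29.1 and 39.6 CPM in young and 33.1, 40.4, 39.7 and 39.6 CPM in aged samples at its promoter (0.19, SE 0.14, edgeR adjusted p = 0.410). Young replicate 3 stood with 3 of the aged samples and aged replicate 1 with the remaining young ones. The window of Hfe also held the promoter of the histone gene Hist1h4c (0.16, edgeR adjusted p = 0.554), of which 24.96% matched other places in the genome. Tfr2, the hepatocyte sensor of transferrin, measured 54.7, 46.6 and 63.3 CPM in young and 54.7, 61.6, 62.1 and 67.5 CPM in aged samples (0.17, SE 0.13, edgeR adjusted p = 0.428), and the groups overlapped. Its gene body region at 137579628 had 0.24 and its flank region -0.004, and neither passed the test.

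**Figure D2:**
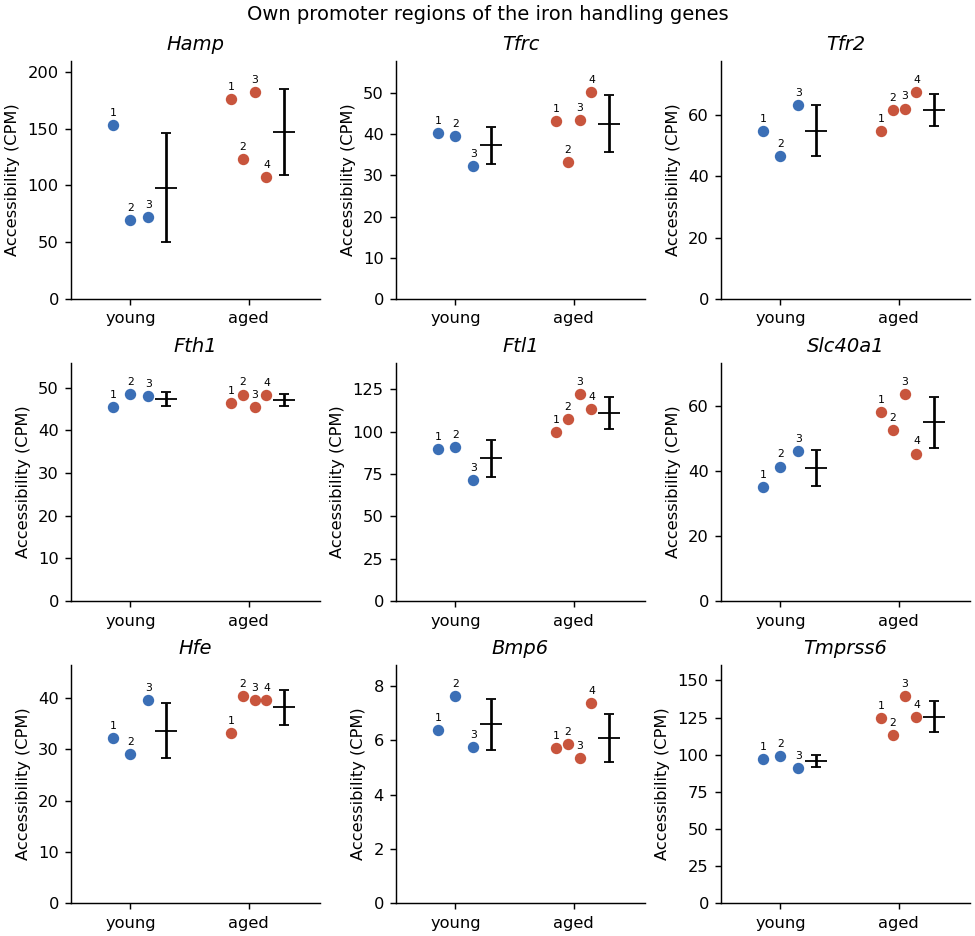
Accessibility in CPM (y axis, from 0) of the promoter region of each of the 9 genes in 3 young and 4 aged samples, with replicate numbers above the points and the mean ± SD beside them. All aged samples lie above all young ones at Tmprss6 and Ftl1, young replicate 1 lies apart from the other young samples at Hamp, and the groups lie together at Fth1.

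Tfrc, which brings transferrin iron into the cell, measured 40.4, 39.5 and 32.2 CPM in young and 43.3, 33.3, 43.4 and 50.3 CPM in aged samples at its promoter. Aged replicate 2 lay within the young range (0.19, SE 0.14, edgeR adjusted p = 0.448). A weak flank region past its 3′ end had -0.37 (edgeR adjusted p = 0.421), and 0 of its regions held the iron responsive elements of its 3′ UTR.

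Slc40a1, the ferroportin gene, had values above 0 at all 4 of its regions, with a median of 0.48, and none passed the test. Its promoter region (chr1:45924330-45926452), which holds the iron responsive element shown above, measured 35.2, 41.4 and 46.2 CPM in young and 58.2, 52.8, 63.7 and 45.4 CPM in aged samples. Aged replicate 4 lay just below young replicate 3, and the other aged samples lay above all young ones (0.43, SE 0.14, edgeR adjusted p = 0.0762). Without aged replicate 4 the fold change was 0.52 and passed (edgeR adjusted p = 0.0321). A region at 45904214, at the start of the annotated gene Gm18303 beyond the 3′ end of Slc40a1, measured 24.0, 36.4 and 31.4 CPM in young and 46.8, 43.1, 51.8 and 36.9 CPM in aged samples. The groups there were separate but nearly touched (0.53, SE 0.16, edgeR adjusted p = 0.0578). The gene body region at 45920675 had 0.36 (edgeR adjusted p = 0.198) and the weak flank region at 45897765 had 0.55 (edgeR adjusted p = 0.260). DESeq2 called the promoter and the region at 45904214 higher (adjusted p = 0.0435 and 0.0253). With offsets fitted on mean abundance they had 0.22 and 0.36, and neither passed (edgeR adjusted p = 0.480 and 0.276).

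The ferritin genes differed in their values. The Ftl1 promoter region (chr7:45458881-45461426) measured 90.0, 90.8 and 71.5 CPM in young and 99.8, 107, 122 and 114 CPM in aged samples, and all 4 aged samples lay above the young ones. Its fold change of 0.39 (SE 0.12) did not pass by edgeR (adjusted p = 0.0694) and passed by DESeq2 (0.42, adjusted p = 0.0314). With offsets fitted on mean abundance it was 0.07 (edgeR adjusted p = 0.765). Ftl1 has processed copies in the genome, and 12.2% of this region matched another place. The region also overlapped the promoter of Gm10252. The Fth1 promoter region (chr19:9982051-9983433) measured 45.5, 48.5 and 48.0 CPM in young and 46.5, 48.4, 45.5 and 48.2 CPM in aged samples. The groups overlapped throughout, and the fold change was -0.005 (SE 0.10, edgeR adjusted p = 0.984), with alternative fits between -0.21 and 0.03. Whether the Ftl1 and Fth1 promoters differed in their change was not tested. Elsewhere in the Ftl1 window, the promoter of the apoptosis gene Bax had -0.40 (edgeR adjusted p = 0.170), with 3 of 4 aged samples below every young one.

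Both regions with lower accessibility in aged liver lay in the Fth1 window, on either side of a promoter with little difference. The first, a flank region of 376 bp (chr19:9974890-9975265) about 7.6 kb upstream of the Fth1 start, measured 7.96, 7.94 and 7.07 CPM in young and 2.55, 3.53, 3.03 and 3.95 CPM in aged samples. The second, of 937 bp (chr19:9992579-9993515) about 10.4 kb downstream, overlaps the promoter of Best1, a chloride channel gene best known from the retinal pigment epithelium, and measured 13.6, 15.9 and 9.87 CPM in young and 7.29, 5.49, 5.14 and 6.62 CPM in aged samples. In both, every aged sample lay below every young one. The fold changes were -1.25 (SE 0.24, edgeR adjusted p = 0.0146) and -1.09 (SE 0.22, edgeR adjusted p = 0.0160). They rested on 13 to 210 reads per sample in the first region and 22 to 421 in the second. Leaving out young replicate 1, young replicate 2 or aged replicate 3 ended both calls, as did offsets fitted on mean abundance, with adjusted p from 0.0507 to 0.0850 by edgeR, and leaving out aged replicate 1 ended the first (adjusted p = 0.0574). The fold changes stayed close in size, at -1.01 and -0.97 with those offsets and between -1.37 and -0.92 over all 21 alternative fits of both regions.

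**Figure D3:**
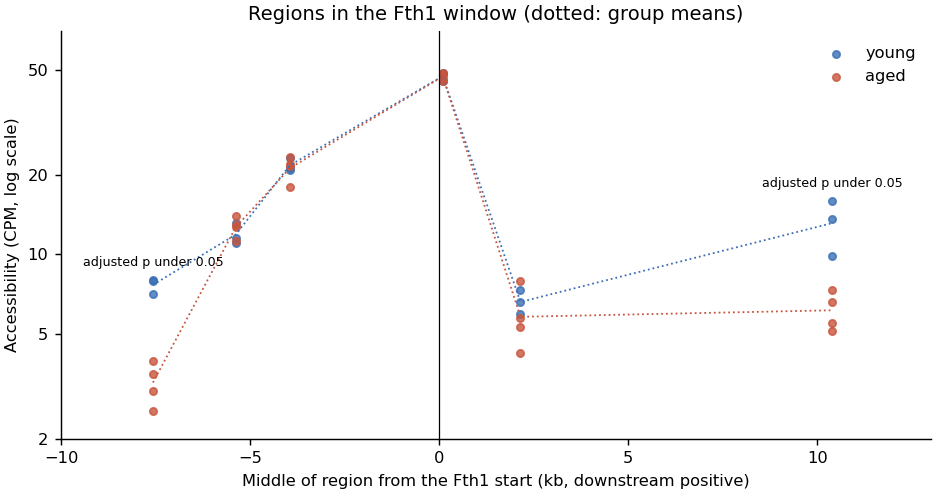
Accessibility in CPM (y axis, log scale) of the 6 regions in the Fth1 window against the distance of their middle from the Fth1 start in kb (x axis), with a point for each of 3 young and 4 aged samples and dotted lines joining the group means. The groups lie apart at about -7.6 and 10.4 kb and overlap at the 4 regions between.

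The upstream region of Fth1 has a near-identical copy, and its middle 300 bases (chr19:9974928-9975227, plus strand, GRCm38) are given with the 5 bases that differ from the copy in capitals.
Fth1 upstream region: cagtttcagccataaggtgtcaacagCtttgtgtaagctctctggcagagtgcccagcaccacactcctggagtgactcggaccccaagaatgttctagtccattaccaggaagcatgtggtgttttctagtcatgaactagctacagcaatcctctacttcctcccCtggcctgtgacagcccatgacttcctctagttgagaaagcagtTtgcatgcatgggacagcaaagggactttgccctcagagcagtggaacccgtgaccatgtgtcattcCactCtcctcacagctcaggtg
The copy covered 98.9% of the region at 98.4% identity on the minus strand, 43.8 kb further upstream (chr19:9931165-9931538), within another consensus region outside the Fth1 window. That region, at 9931132, measured 4.63, 3.33 and 2.80 CPM in young and 1.49, 1.57, 2.57 and 3.56 CPM in aged samples, on 8 to 88 reads. Its fold change was -0.66 (SE 0.35) and did not pass the test (edgeR adjusted p = 0.260). Reads that fit both places equally well carry a low mapping quality, so how the reads divide between them is uncertain.

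Between the upstream region and the promoter, 2 further flank regions differed little, with 0.08 and -0.05. The second (chr19:9978239-9979156) held an AP-1 site about 4.0 kb before the Fth1 start, inside an antioxidant response element read on the minus strand, and another antioxidant response element nearby. The 93 bases that hold them (chr19:9978576-9978668, plus strand, GRCm38) are given because ferritin heavy chain transcription is known to respond to oxidants through such elements, with the matches in capitals.
Fth1 upstream elements: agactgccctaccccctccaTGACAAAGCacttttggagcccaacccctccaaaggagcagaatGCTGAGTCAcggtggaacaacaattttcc
This region measured 20.8, 23.1 and 21.2 CPM in young and 17.9, 21.6, 21.9 and 23.3 CPM in aged samples (SE 0.14, edgeR adjusted p = 0.874), and the groups overlapped. Other regions of the Fth1 window held such matches too. The promoter region held an AP-1 site and an antioxidant response element, the region at 9977045 an antioxidant response element, and the region at 9984606 an AP-1 site. Among all 55680 regions, 25.1% held the AP-1 site and 34.7% the antioxidant response element.

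The levels of the 9 promoters were compared per kb of region. In young liver the level was highest at Fth1, at 34.2 ± 1.19 CPM per kb (SD, n = 3), and Ftl1 followed at 33.0 ± 4.28 CPM per kb. Tfr2, Tmprss6 and Tfrc lay at 25.19, 24.97 and 23.48 CPM per kb, and Hamp, Slc40a1 and Hfe at 19.4, 19.3 and 17.3 CPM per kb. Each of these overlapped its neighbour in the order. Bmp6, at 8.71 ± 1.26 CPM per kb, lay below all of them. In aged liver Ftl1, at 43.5 ± 3.71 CPM per kb (SD, n = 4), lay above every other promoter, with Fth1 at 34.1, Tmprss6 at 32.8 and Hamp at 29.1 CPM per kb following. Tfr2, Tfrc and Slc40a1 came next (28.2, 26.8 and 25.9 CPM per kb), each promoter from Fth1 to Slc40a1 overlapping its neighbour, while Hfe (19.6 CPM per kb) and Bmp6 (8.04 CPM per kb) lay apart below. Region length differed between genes, and the broad Hamp region averages its promoter with flanking sequence.

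To place these genes among the rest of iron metabolism, the promoters of 76 other genes in 4 lists were examined, of which 71 had a region. Of these, 4 were higher and 0 lower in aged liver, or 5.63% higher beside 4.48% of all promoter regions. By edgeR, 24 of the 71 had an unadjusted p under 0.05, where 32.1% of all promoter regions did. DESeq2 called 9 higher and 0 lower, where it called 10.01% of all promoter regions higher and 2.224% lower. The fold change was above 0 at 58 of the 71 (81.7%), with a median of 0.18, beside 61.1% and 0.09 over all promoter regions. These sets were not matched in strength, since each of the 71 was its gene's strongest promoter region. Over all regions the median fold change rose with strength, from -0.42 in the weakest to 0.28 in the strongest decile. How far strength enters the difference was not tested.

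Among 16 genes of iron uptake, export and haem scavenging, 1 was higher (6.25% of them, beside 4.48% of all promoter regions) and the median was 0.14. By edgeR, 5 had an unadjusted p under 0.05 (31.25%, beside 32.1% of all promoter regions), and DESeq2 called 2 higher. The edgeR call was Cp, which encodes ceruloplasmin, the plasma ferroxidase that loads exported iron onto transferrin. Its promoter measured 5.74, 10.6 and 11.02 CPM in young and 23.0, 15.5, 20.8 and 21.8 CPM in aged samples, with no overlap, and rose by 1.16 on the log2 scale (SE 0.23, edgeR adjusted p = 0.0147). This call held in 18 of 21 alternative fits, all but those without young replicate 1, aged replicate 1 or aged replicate 3 (adjusted p = 0.0508 to 0.0640 by edgeR). The endocytic receptor gene Lrp1 had 0.54 (edgeR adjusted p = 0.0697), and the lowest values were those of Lcn2, the siderophore binding acute phase protein (-0.30), and the ferrireductase gene Steap2 (-0.21). At Lcn2, aged replicate 4 measured 54.1 CPM and the other aged samples 14.2 to 16.3 CPM, against 21.2 to 37.3 CPM in young ones. Without that library the fold change was -1.04 and passed the test (edgeR adjusted p = 0.0110). At Steap2 the same library measured 19.9 CPM and the other aged samples 10.003 to 10.97 CPM, and without it the fold change was -0.52 and did not pass (edgeR adjusted p = 0.0835).

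Among 21 genes of BMP, SMAD and IL-6 signalling to hepcidin, 3 were higher (14.3% of them, beside 4.48% of all promoter regions) and the median was 0.22. By edgeR, 9 had an unadjusted p under 0.05 (42.9%, beside 32.1% of all promoter regions), and DESeq2 called 3 higher. Hjv, the gene of the BMP co-receptor hemojuvelin that matriptase-2 cleaves (Hfe2 in the annotation), measured 70.3, 63.2 and 72.5 CPM in young and 80.1, 95.5, 99.7 and 98.9 CPM in aged samples (0.45, SE 0.12, edgeR adjusted p = 0.0392). Smad6, which encodes an inhibitory SMAD, measured 81.0, 69.2 and 57.5 CPM in young and 91.4, 86.5, 100.6 and 105.8 CPM in aged samples (0.47, SE 0.13, edgeR adjusted p = 0.0491). Il6st, which encodes the signalling subunit of the IL-6 receptor, measured 63.9, 70.5 and 68.2 CPM in young and 87.4, 82.6, 87.3 and 93.4 CPM in aged samples (0.38, SE 0.10, edgeR adjusted p = 0.0484). At all 3, every aged sample lay above every young one. They passed in 8, 5 and 5 of 21 alternative fits, and offsets fitted on mean abundance lowered them to 0.15, 0.17 and 0.09. The highest value in this list was that of Stat3 (0.49, edgeR adjusted p = 0.0960) and the lowest were those of the ligand gene Bmp2 (-0.31) and of Erfe, the erythroid hormone that lowers hepcidin (-0.20). None of these 3 passed.

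None of 11 genes of storage, iron regulatory proteins and chaperones passed by edgeR in either direction. The same held for 23 genes of iron-sulphur cluster and haem synthesis, where 4.48% of all promoter regions were called higher and 2.06% lower. In these lists 4 (36.4%) and 6 (26.1%) had an unadjusted edgeR p under 0.05, beside 32.1% of all promoter regions. DESeq2 called 2 higher in each list, where it called 10.01% of all promoter regions higher. The medians of the lists were 0.12 and 0.17. The nearest to the threshold were Aco1, the gene of iron regulatory protein 1 (0.42, edgeR adjusted p = 0.0515), and the iron chaperone gene Pcbp2 (0.49, edgeR adjusted p = 0.0524). With offsets fitted on mean abundance these were 0.06 and 0.23. The lowest values in the first list were those of the haem oxygenase gene Hmox1 (-0.07) and the ferritinophagy receptor gene Ncoa4 (0.06). In the second list Isca2, of iron-sulphur cluster assembly, and the mitochondrial iron importer gene Slc25a28 were highest (0.41 and 0.38, and 0.12 and 0.06 with the abundance offsets), and the erythroid haem synthesis gene Alas2 and the cysteine desulfurase gene Nfs1 were lowest (both -0.22). The regions of Isca2, Slc25a28, Alas2 and Nfs1 also overlapped the promoters of Npc2, AC138790.1, Mir3620 and Romo1.

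**Figure D4:**
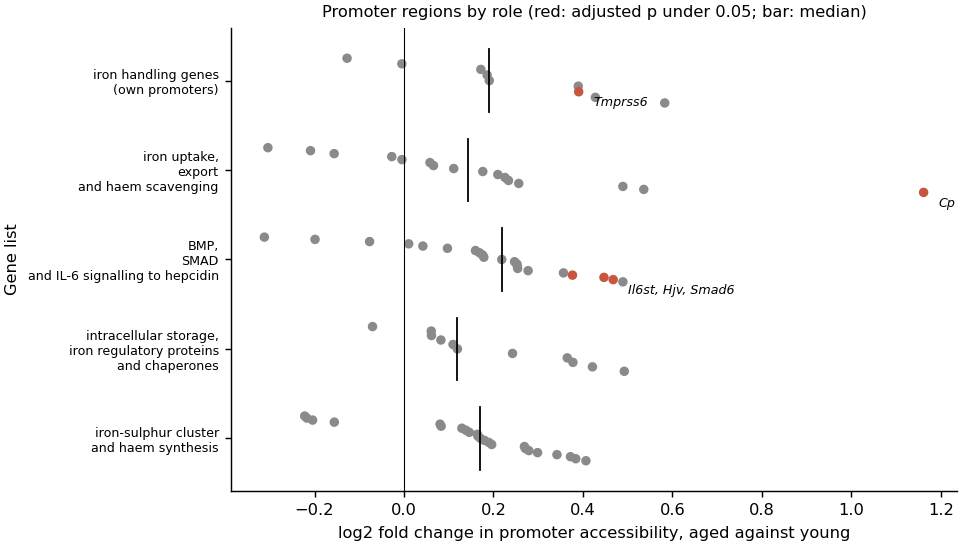
Log2 fold change in promoter accessibility of aged against young liver (x axis) for the 9 iron handling genes with a promoter region and for the 71 other genes in 4 lists, 1 point per gene, with a bar for the median of each group and red for an adjusted p under 0.05. Every median lies between 0.12 and 0.22, and Cp lies farthest out at 1.16.

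The 9 promoters were also fitted under 21 alternatives. Hamp, Tfrc, Ftl1, Slc40a1, Hfe and Tmprss6 stayed above 0 in every one of them, with ranges of 0.26 to 1.06, 0.002 to 0.28, 0.07 to 0.45, 0.22 to 0.54, 0.03 to 0.33 and 0.05 to 0.48. Hamp passed the test in 2 of them, Ftl1 in 2, Slc40a1 in 4 and Tmprss6 in 5. Tfr2, Fth1 and Bmp6 changed sign in 1, 7 and 2 of them, with ranges of -0.07 to 0.29, -0.21 to 0.03 and -0.25 to 0.05.

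**Figure D5:**
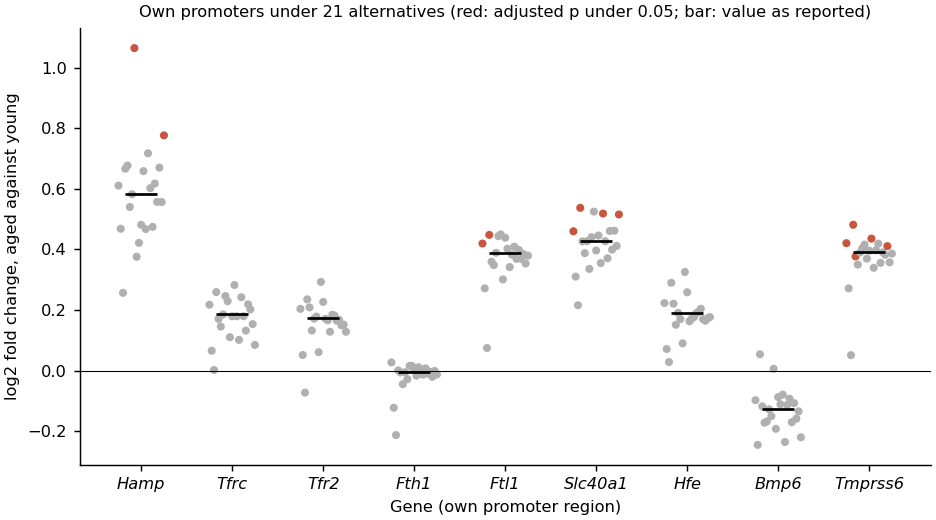
Log2 fold change of aged against young liver (y axis) at the promoter region of each of the 9 genes under 21 alternative fits (points, red for an adjusted p under 0.05), with a bar for the value as reported. Hamp spreads most, from 0.26 to 1.06, and Fth1 and Bmp6 lie on either side of 0.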

How the data were processed

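The data were ATAC-seq libraries from liver of young and aged mice, as raw counts that the authors deposited for 55680 consensus regions, without normalization. Per the study's methods, the authors trimmed adapters (cutadapt 1.13), aligned to GRCm38 (Bowtie2 2.4.1), filtered for mapping quality, proper pairs, PCR duplicates and mitochondrial reads, called peaks per library (MACS2 2.2.7) and counted reads (featureCounts) in peaks found in at least 2 samples. They tested with DESeq2, which is an alternative here. Coordinates are as deposited. Columns were matched by sample description, and 0 were left over.

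All regions were fitted with edgeR 4.0.16 (R 4.3.3), using TMM and age alone. Log2 CPM had a prior count of 2. Copies were sought with minimap2, near-identical meaning at least 80% cover at 95% identity, and annotation used bedtools 2.31.1. Alternatives were DESeq2 1.42.0, limma 3.58.1 (voom), total counts, loess offsets (span 0.3), filters, left-out samples, summed aged pairs, other windows, a replicate block, a threshold of 0.01 and a prior count of 0.5. The fit was tested on simulated data. Intervals and errors cover the samples measured, and libraries of the same age differed beyond sampling noise. Members and lists were chosen with earlier results of these data known. Named were all promoters of the 10 genes, regions past the threshold and, per list, promoters past it and the 2 highest and 2 lowest. Each gene took its promoter region with the highest mean log2 CPM.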

Additional observations from a re-analysis of the deposited data

Results flagged for a closer look

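Among the 4 aged samples, 1 sample stood apart from the other 3 at 4 of the 56 regions examined for this, 38 at the iron handling genes and 18 at named pathway promoters. The gap to the nearest sample, as a share of the whole range, exceeded the 95% critical value of Dixon's test, which chance exceeds in about 1 of 20 groups. At the Slc40a1 flank region at 45897765, the log2 CPM was 3.14 in aged replicate 2 and 2.47 to 2.54 in the others (share 0.902). At the Hfe promoter, aged replicate 1 had 5.06 against 5.31 to 5.34 (share 0.897). Aged replicate 4 stood above the others at the promoters of Lcn2, with 5.76 against 3.85 to 4.04 (share 0.901), and Steap2, with 4.33 against 3.35 to 3.48 (share 0.866).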

How the results depend on the processing

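Counts are given as higher and lower in aged liver. The 38 regions of the iron handling genes gave 1 and 2 by the reported fit. The higher count was 4 with DESeq2, 5 with GC offsets, 3 with the replicate block, 2 with aged 2 and 4 summed, and 0 with total counts, abundance offsets, either filter on low counts, the threshold of 0.01 or aged 1 and 2, 1 and 3, 2 and 3 or 3 and 4 summed. The lower count was 0 with abundance offsets, the threshold of 0.01, the gene body without flank or 2 kb either side, and 1 without promoters of other genes. Leaving out 1 sample gave 0 to 2 higher and 0 to 2 lower. The 71 pathway promoters gave 4 and 0. The higher count was 17 with GC offsets, 9 with DESeq2 or limma, 8 with aged 2 and 4 summed, 2 with filterByExpr or aged 1 and 4 summed, 1 with total counts, abundance offsets, at least 10 counts, the replicate block or aged 1 and 3, 2 and 3 or 3 and 4 summed, and 0 at 0.01. The replicate block gave 1 lower. Leaving out 1 sample gave 0 to 5 higher and 0 to 1 lower.

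Over all regions the reported counts were 1360 and 1838. The higher count was 2760 with DESeq2, 543 with total counts, 250 with abundance offsets, 3616 with GC offsets, 2197 with limma, 525 with at least 10 counts, 50 at 0.01, and 269, 699, 2164 and 727 with aged 1 and 3, 2 and 3, 2 and 4 and 3 and 4 summed. The lower count was 2931 with total counts, 414 with abundance offsets, 802 with at least 10 counts, 123 at 0.01, and 693 and 1107 with aged 1 and 3 and 2 and 3 summed. Leaving out 1 sample gave 55 to 1630 higher and 133 to 2600 lower, the lowest of both without young replicate 1. The higher share of calls was 42.5% as reported, 58.8% with DESeq2, 64.0% with GC offsets and 15.6% with total counts, which moved the median of all regions from -0.04 to -0.15.

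Direction turned at the promoter of Tfr2 with abundance offsets (-0.073). It turned at Fth1 with DESeq2 (0.0266), GC offsets (0.000341) and aged 1 and 3 summed (0.00684), and leaving out 1 sample gave -0.0285 to 0.0153. It turned at the Usf2 promoter in the Hamp window with abundance offsets (-0.0273) and at the Fth1 flank region at 9978239 with GC offsets (0.0604), where leaving out 1 sample gave -0.0971 to 0.0343. Of the 38 regions, 8 turned with abundance offsets, 4 with GC offsets, 2 with DESeq2 and 1 with total counts. It turned at Bmp6 with abundance offsets (0.0535), and leaving out 1 sample gave -0.236 to 0.00565. Among pathway promoters it turned at Erfe (0.0183) and Alas2 (0.031) with abundance offsets, at Ncoa4 with total counts (-0.0578) and abundance offsets (-0.186), and at Hmox1 with GC offsets (0.0059) and the replicate block (0.0222), and leaving out 1 sample gave -0.167 to 0.0268. The cause was not tested.

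Same-numbered young and aged samples correlated at -0.12, 0.06 and 0.03 in their deviations, so replicate numbers did not pair the samples. Aged replicate 4 has no young partner, so the block takes it out of the age contrast. With the replicate block, the promoters of Hamp (0.78, edgeR adjusted p = 0.0173) and Slc40a1 (0.52, 0.0296) passed and that of Tmprss6 did not (0.39, 0.0947). Without aged replicate 4 and with no block, Hamp had 0.72 (edgeR adjusted p = 0.0798) and Slc40a1 0.52 (0.0321). A prior count of 0.5 moved each named promoter's log2 CPM difference by less than the spread between samples.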
